A study of Mus musculus with 2 samples.

Results

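Basement membranes are thin sheets of extracellular matrix on which epithelia and endothelia rest. Type IV collagen and laminin each form a network, nidogen and perlecan link the networks, and the collagen-binding protein SPARC acts during their deposition. In the early embryo the extra-embryonic endoderm, above all its parietal layer, is known for making large amounts of these proteins, and the transcription factors GATA4 and GATA6 are known to direct this lineage. Described here are 8 genes of this group, out of 38458 genes in the tables: Col4a1 and Col4a2 (the type IV collagen chains), Lama1, Lamb1 and Lamc1 (the chains of laminin-111), Nid1 (nidogen), Hspg2 (perlecan) and Sparc. They were chosen by name, with earlier results of these data known, and each had a column in both tables.

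Single-cell RNA sequencing was performed on mouse embryonic stem cells (mESCs) of the E14 background in which both alleles of Terc, the telomerase RNA, had been replaced in successive rounds of targeting and the neo cassette of the first round had been removed with Cre recombinase. All cells belonged to DKO741, a single Terc knock-out line, so that no wild-type cells and no second line enter the comparison. PD100 cells (labelled passage 100) are pre-ALT, that is, before alternative lengthening of telomeres maintained the culture, and PD800 cells (labelled passage 800) are post-ALT. Stocks were kept on mouse embryonic fibroblast feeders and the experiments were done without feeders. Cells were captured by inDrops, a droplet method that counts unique molecular identifiers (UMIs), 1 per captured transcript end.

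Each time point had 1 library, so that no replicate error and no test could be given, and library and time point cannot be told apart. Cells with at least 1000 UMIs and at most 20% mitochondrial UMIs were kept, 814 of 1291 PD100 barcodes and 900 of 1666 PD800 barcodes. Terc itself had 0 UMIs in both libraries, and without wild-type cells beside them this count is no check of the knock-out. The kept PD100 cells were divided by the summed UMIs of Srgn, Gata6 and Gata4, markers of endoderm in cultures of this kind. There were 28 cells with 3 or more such UMIs (marker-positive PD100, 3.44% of the kept PD100 cells) and 786 others (other PD100). These sets held 71402 and 1754831 UMIs, and PD800 held 2580963 UMIs. Median depths were 2591, 2134 and 2701.5 UMIs per cell, and median mitochondrial shares 1.14%, 1.23% and 4.42%. Levels are UMIs summed over a set of cells per 1000000 UMIs of that set (CPM), with exact Poisson 95% intervals. A gene with 0 UMIs could have been present at up to 42.0, 1.71 and 1.16 CPM in the respective sets (the limit of 3 UMIs). All intervals cover counting error only. Of all barcodes 21 of 2957, and of the kept cells 8 of 1714, had a sequence found in both libraries. Doublets were called by Scrublet in 14 PD100 cells, 3 of them marker-positive, and in 8 PD800 cells, and were kept.

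Srgn, Gata6 and Gata4 chose the marker-positive cells, so their own levels are no result, and they had been named with the collagen genes of the same cells already known. The other 13 endoderm markers examined served as a check of the label. They had 138 UMIs in 26 of the 28 marker-positive cells (1933 CPM), against 72.4 CPM in other PD100 and 15.5 CPM in PD800. Sox17, a transcription factor of endoderm, was at 336, 10.8 and 0.775 CPM, whereas Hnf4a had no UMI in the marker-positive cells. Summed stem cell markers, 12 genes that include Pou5f1 and Sox2, were lower in the marker-positive cells (6302 CPM) than in other PD100 (12209 CPM) or PD800 (12660 CPM). Most of this sum was Dppa5a, with 390 of 450 UMIs in the marker-positive cells and 15755 of 21424 in other PD100. In these sets Pou5f1 was at 154 and 581 CPM and Sox2 at 42.0 and 180 CPM. Klf4 alone was higher in the marker-positive cells, at 112 against 66.1 CPM (log2 0.76, -0.48 to 1.79). The summed levels of the 12 genes per cell overlapped, at 0.0491 to 1.23% of a marker-positive cell's UMIs and 0.0826 to 4.24% of another PD100 cell's. All 15 fibroblast markers, Col1a1, Col1a2 and Dcn among them, had 0 UMIs in the marker-positive cells, and together 39.3 CPM in other PD100 and 19.0 CPM in PD800. Of 10 visceral endoderm markers 8 had 0 UMIs there, with Amn and Cubn as the exceptions (28 and 8 UMIs). The 7 parietal endoderm markers all had a UMI but few, 32 in sum (448 CPM, against 60.4 CPM in other PD100 and 167 CPM in PD800). Among 8 endothelial markers 6 were at 0 in the marker-positive cells, and Egfl7 (27 UMIs) and Pecam1 (8 UMIs) were present. The data therefore show cells with endoderm markers and lower levels of stem cell markers, without a visceral or parietal name.

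In the marker-positive cells the basement membrane genes were higher than in other PD100 cells, most of all the type IV collagen chains and Lama1. In PD800 the collagen, laminin and Sparc UMIs were lower than in other PD100 cells, whereas Nid1 and Hspg2 were higher. The lower levels of Col4a2 and Lama1 in PD800 did not hold under every choice of the PD100 cells, as given with their values. Summed over the 8 genes, the level was 11960 CPM (11172 to 12790) in marker-positive PD100, 497 CPM (465 to 532) in other PD100 and 203 CPM (186 to 222) in PD800. The sum was thus 24.04-fold higher (21.9 to 26.5, exact conditional interval) in marker-positive than in other PD100 cells, and 2.45-fold lower (2.19 to 2.73) in PD800 than in other PD100.

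**Figure D1:**
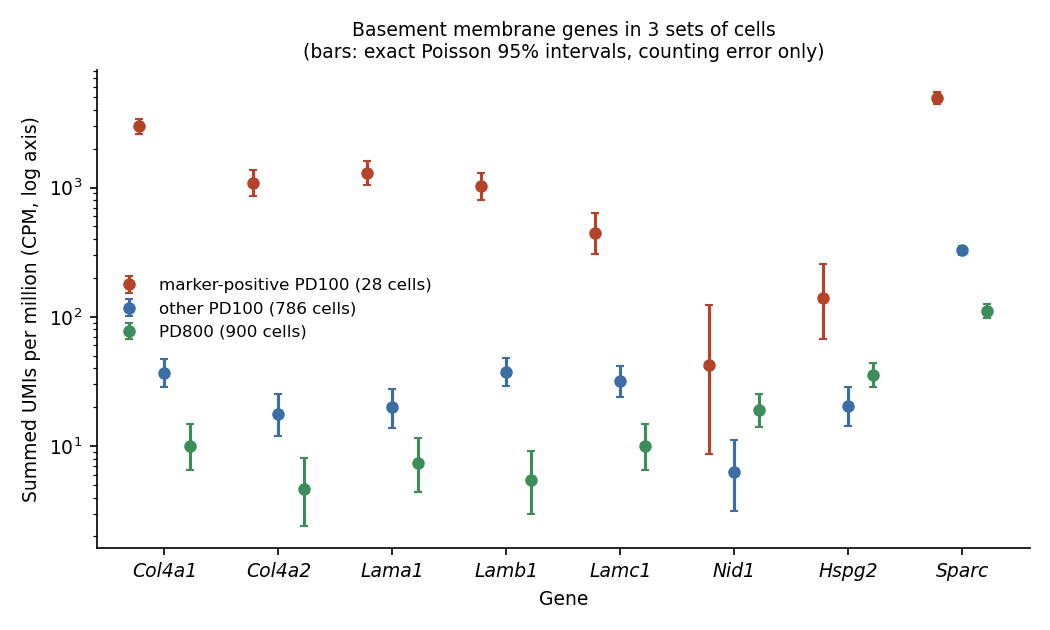
Level of each of the 8 genes in CPM (log axis) in marker-positive PD100, other PD100 and PD800 cells, with exact Poisson 95% intervals. For 6 genes the order is marker-positive, other PD100, PD800, while Nid1 and Hspg2 are higher in PD800 than in other PD100.

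COL4A1 and COL4A2 chains wind into a common triple helix, and their genes lie head to head on chromosome 8 (GRCm38; Col4a1, chr8:11198423-11312826, minus strand; Col4a2, chr8:11312805-11449287, plus strand). In the GENCODE annotation their first bases overlap by 22 bases, so that both genes start within the stretch shown here (chr8:11312805-11312826, plus strand, 5′ to 3′), in which capitals mark a GC box, GGGCGG, a word bound by SP family factors:
Col4a1 and Col4a2 starts: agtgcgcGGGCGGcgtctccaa
Col4a1 had 212 UMIs in marker-positive PD100 (2969 CPM, 2583 to 3397), 65 in other PD100 (37.0 CPM, 28.6 to 47.2) and 26 in PD800 (10.1 CPM, 6.58 to 14.8). Col4a2 had 78 UMIs (1092 CPM, 864 to 1363), 31 (17.7 CPM, 12.0 to 25.1) and 12 (4.65 CPM, 2.40 to 8.12). Both genes followed the same order of sets, and the intervals of the marker-positive cells were far from the others. Marker-positive cells were 80.2-fold higher for Col4a1 (60.4 to 108) and 61.8-fold higher for Col4a2 (40.3 to 97.0). PD800 was 3.68-fold lower than other PD100 for Col4a1 (2.30 to 6.04) and 3.80-fold lower for Col4a2 (1.90 to 8.12). With marker-positive cells counted from 2 marker UMIs the log2 ratio of Col4a2 was -0.79 (-2.03 to 0.43) instead of -1.93, and against other PD100 cells without any marker UMI, chosen after the data were seen, it was -0.49 (-1.79 to 0.84), so that the lower level of Col4a2 depended on a few cells. The number of Col4a1 UMIs per Col4a2 UMI was 2.72 (2.09 to 3.57), 2.10 (1.35 to 3.33) and 2.17 (1.06 to 4.71), with overlapping intervals.

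Every one of the 28 marker-positive cells had a Col4a1 UMI, and 20 of them had Col4a2 as well. Col4a2 was never seen there without Col4a1. In other PD100 34 cells had Col4a1, 14 had Col4a2 and 9 had both. In PD800 22 cells had Col4a1 and 12 had Col4a2, and no cell had both. With so few cells of either kind, this absence does not show whether the genes were expressed together. The PD800 cells held at most 2 Col4a1 UMIs and 1 Col4a2 UMI each.

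Laminin-111 is a cross-shaped trimer of an alpha, a beta and a gamma chain, and it starts basement membrane assembly at the cell surface. Lama1 (chr17:67697259-67822647, plus strand) had 93 UMIs in marker-positive PD100 (1302 CPM, 1051 to 1596), 35 in other PD100 (19.9 CPM, 13.9 to 27.7) and 19 in PD800 (7.36 CPM, 4.43 to 11.5). Lamb1 (chr12:31265234-31329644, plus strand) had 73 (1022 CPM, 801 to 1285), 66 (37.6 CPM, 29.1 to 47.8) and 14 UMIs (5.42 CPM, 2.97 to 9.10). Lamc1 (chr1:153218922-153332786, minus strand) had 32 (448 CPM, 307 to 633), 56 (31.9 CPM, 24.1 to 41.4) and 26 UMIs (10.1 CPM, 6.58 to 14.8). All 3 chains were highest in the marker-positive cells, but by different amounts. Lama1 was 65.3-fold higher there than in other PD100 (43.8 to 99.3), Lamb1 27.2-fold (19.2 to 38.5) and Lamc1 14.0-fold (8.80 to 22.1). The interval of Lama1 thus lay above those of Lamb1 and Lamc1. Its separation from Lamb1 depended on a few cells. Without the cell with most UMIs of the 8 genes in each set, the log2 intervals overlapped (Lama1 5.49 to 6.81, Lamb1 4.46 to 5.52). They also overlapped with marker-positive cells counted from 2 or from 5 marker UMIs. In PD800 the order differed. Lamb1 was 6.93-fold lower than in other PD100 (3.86 to 13.4), the largest ratio among the 8 genes in this direction, while Lamc1 was 3.17-fold lower (1.96 to 5.26) and Lama1 2.71-fold lower (1.51 to 5.01). For Lama1 the log2 ratio of -1.44 was -0.48 (-1.57 to 0.64) among cells with at least 2000 UMIs. UMIs of all 3 chains occurred together in 14 of 28 marker-positive cells, in 4 of 786 other PD100 cells and in 0 of 900 PD800 cells. No PD800 cell held a pair of them, but only 16, 11 and 26 PD800 cells held Lama1, Lamb1 and Lamc1. With so few cells, the absence of pairs does not show whether the chains were expressed together.

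Nidogen and perlecan connect the laminin and collagen networks, and perlecan also carries heparan sulphate chains that hold growth factors. Their pattern differed from that of the network chains. Nid1 (chr13:13437551-13512269, plus strand) had 3 UMIs in marker-positive PD100 (42.0 CPM, 8.66 to 123), 11 in other PD100 (6.27 CPM, 3.13 to 11.2) and 49 in PD800 (19.0 CPM, 14.0 to 25.1). Hspg2 (chr4:137468769-137570630, plus strand) had 10 (140 CPM, 67.2 to 258), 36 (20.5 CPM, 14.4 to 28.4) and 92 UMIs (35.6 CPM, 28.7 to 43.7). For both genes PD800 lay above other PD100. Nid1 was 3.03-fold higher in PD800 than in other PD100 (1.55 to 6.46) and Hspg2 1.74-fold higher (1.17 to 2.63). In the marker-positive cells Hspg2 was 6.83-fold higher than in other PD100 (3.02 to 14.0). For Nid1, which had 3 UMIs there in 3 cells, the ratio was 6.70 with an interval of 1.20 to 25.4. Linkers made up 1.52% of the UMIs of the 8 genes in marker-positive PD100 (0.813 to 2.59%, exact binomial), 5.38% in other PD100 (3.98 to 7.10%) and 26.9% in PD800 (23.1 to 30.9%). Cells with a UMI of both linkers numbered 6 in PD800 and 0 in either PD100 set. Only 10 other PD100 cells held Nid1 and 30 held Hspg2, so the absence of cells with both carries little weight.

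To place a gene with lower PD800 levels beside the linkers with higher ones, 190 bases ahead of the start of Lamb1, Nid1 and Hspg2 are shown, from 250 to 61 bases upstream of the RefSeq start (GRCm38.p6, gene strand, all plus). They lie at chr12:31265043-31265232, chr13:13437352-13437541 and chr4:137468553-137468742. Capitals mark the GC box GGGCGG and the CCAAT box, each searched on both strands, so that the reverse complements CCGCCC and ATTGG are also in capitals:
Lamb1: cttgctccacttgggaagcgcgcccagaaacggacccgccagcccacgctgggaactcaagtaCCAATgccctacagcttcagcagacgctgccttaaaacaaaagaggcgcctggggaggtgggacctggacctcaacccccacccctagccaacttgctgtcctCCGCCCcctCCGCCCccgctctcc
Nid1: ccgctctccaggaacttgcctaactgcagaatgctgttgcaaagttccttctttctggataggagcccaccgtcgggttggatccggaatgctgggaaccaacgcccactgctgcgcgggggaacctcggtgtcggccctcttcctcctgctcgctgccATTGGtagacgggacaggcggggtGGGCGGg
Hspg2: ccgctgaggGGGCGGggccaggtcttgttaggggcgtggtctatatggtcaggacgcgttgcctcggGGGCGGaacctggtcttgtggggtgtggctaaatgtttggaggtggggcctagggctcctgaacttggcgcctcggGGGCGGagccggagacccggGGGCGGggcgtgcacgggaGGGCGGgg
Lamb1 held 2 GC boxes and 1 CCAAT box, Nid1 1 of each, and Hspg2 5 GC boxes and no CCAAT box. A GC box occurred in 22.8% of 32817 windows of the same length before RefSeq starts, and a CCAAT box in 26.7%. RefSeq windows were matched for 6 of the 8 genes, all except Lama1 and Lamc1. The Sparc window lies inside the GENCODE gene, whose start is further upstream, and it overlaps annotated exons, as do the windows of Col4a1 and Col4a2. None of the 6 windows held a GATA box (the word AGATAA or its variant AGATAG, also with T as the first base, on either strand), which was present in 22.4% of all windows. TATAAA, found in 8.73% of windows, and ACAAT, a word of SOX factor sites found in 22.5%, were not in them either.

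Sparc (chr11:55394500-55423183, minus strand) codes for a secreted glycoprotein that binds type IV collagen. It had 353 UMIs in marker-positive PD100 (4944 CPM, 4442 to 5487), 573 in other PD100 (327 CPM, 300.3 to 354) and 287 in PD800 (111 CPM, 98.7 to 125). The intervals of the 3 sets did not overlap. Marker-positive cells were 15.1-fold higher than other PD100 (13.2 to 17.3), and PD800 was 2.94-fold lower than other PD100 (2.54 to 3.40). Sparc differed from the collagen and laminin genes in how many cells held it, as described next.

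The share of cells with a UMI was compared at equal depth, with every kept cell reduced by a random draw to 1000 of its UMIs. Col4a1 was then detected in 24 of 28 marker-positive cells (85.7%, 67.3 to 96.0, exact binomial), in 20 of 786 other PD100 cells (2.54%, 1.56 to 3.90) and in 9 of 900 PD800 cells (1.00%, 0.458 to 1.89). Sparc was detected in 92.9% (76.5 to 99.1), 18.8% (16.2 to 21.7) and 9.78% (7.92 to 11.9). Both transcripts were found together in 23 of the 28 marker-positive cells at this depth, and Sparc was also common outside them. For the other network genes the shares in marker-positive cells were 60.7% for Col4a2 and for Lama1, 50% for Lamb1 and 32.1% for Lamc1, against 1.27 to 2.67% in other PD100 and 0.444 to 1.11% in PD800. Hspg2 was in 14.3%, 2.29% (1.36 to 3.60) and 3.44% (2.35 to 4.85) of cells, with overlapping intervals for other PD100 and PD800. Nid1 was in 0 of 28 marker-positive cells (exact binomial interval up to 12.3%, for cells with a UMI at this depth), in 0.636% of other PD100 cells and in 1.89% of PD800 cells. Without thinning Col4a1 was in 100%, 4.33% and 2.44% of cells and Sparc in 96.4%, 30.03% and 22.6%.

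**Figure D2:**
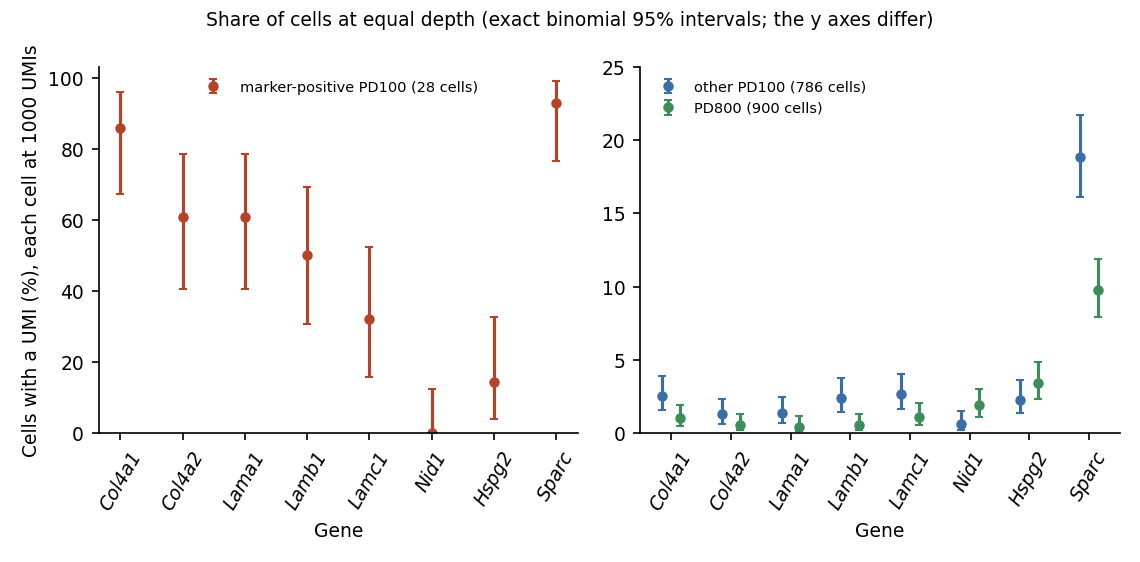
Share of cells with a UMI of each gene after thinning to 1000 UMIs per cell, with exact binomial 95% intervals, for marker-positive PD100 (left) and for other PD100 and PD800 (right, on a smaller scale). Col4a1 and Sparc are in 85.7% and 92.9% of marker-positive cells, and Sparc is the gene most often detected in the other sets.

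These cultures contain no cell type known to lack the genes, so no share of cells could be set as the level of free RNA, and the part of free RNA in the shares of single genes was not tested. Col4a1 and Sparc had 212 and 353 UMIs in marker-positive PD100 and 65 and 573 in other PD100.

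All 8 genes were at least 2-fold higher in marker-positive than in other PD100 cells by their ratio, against 14.4% of the 6984 genes with 50 or more UMIs over both libraries (tested genes). All 8 passed this minimum, Col4a2 only through the marker-positive cells and Nid1 and Hspg2 only through PD800, so the minimum has a part in their place in the count. The 8 genes and the marker rule were also chosen with earlier results of these data known, so the count is a description. The counting interval lay wholly above 2-fold for 7 of the 8, all but Nid1, against 2.92% of tested genes. The median log2 ratio of the 8 genes was 4.34 and that of all tested genes -0.29. In PD800 over other PD100 6 of the 8 were at least 2-fold lower (16.8% of tested genes) and Nid1 was at least 2-fold higher (9.26% of tested genes). The interval lay wholly below 2-fold for Col4a1, Lamb1 and Sparc (5.36% of tested genes) and wholly above 2-fold for none of the 8 (5.43% of tested genes). The median log2 ratio of all tested genes was -0.33 in this comparison. Relative to it the log2 ratio was -2.46 for Lamb1, -1.10 for Lama1, 1.93 for Nid1 and 1.13 for Hspg2, and the other genes with lower levels in PD800 lay between Lamb1 and Lama1. Since all the PD100 cells of these comparisons come from 1 library, the comparisons share it.

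**Figure D3:**
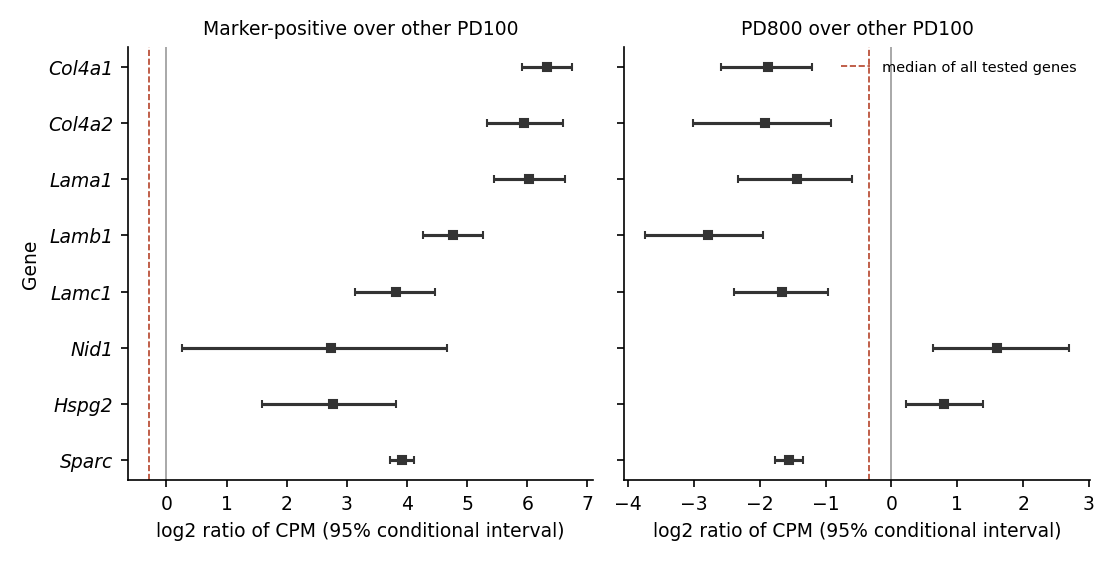
Log2 ratio of CPM for each gene, marker-positive over other PD100 (left) and PD800 over other PD100 (right), with exact conditional 95% intervals. The solid line marks equal levels and the dashed line the median of 6984 tested genes (-0.29 and -0.33), and Nid1 and Hspg2 are on the other side of zero from the remaining genes in the right panel.

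The marker-positive cells, which made up 3.44% of the kept PD100 cells and held 3.91% of their UMIs, contributed unequally to the PD100 UMIs of the 8 genes. They held 76.5% of the Col4a1 UMIs, 72.7% of Lama1, 71.6% of Col4a2 and 52.5% of Lamb1, but 38.1% of Sparc, 36.4% of Lamc1, 21.7% of Hspg2 and 21.4% of Nid1. A comparison of PD800 with all PD100 cells therefore weighed these cells differently for each gene. Against all PD100 cells Col4a1 was 15.1-fold lower in PD800 (10.1 to 23.5) and Lama1 9.52-fold lower (5.85 to 16.3). Against other PD100 cells alone the values were 3.68-fold and 2.71-fold. For Nid1 and Hspg2 the choice moved the ratio less, to 2.48-fold (1.35 to 4.86) and 1.42-fold (0.983 to 2.06) in PD800 over all PD100. The interval of Hspg2 then included equal levels, unlike that against other PD100 cells (1.17 to 2.63). Of the 8 genes 6 were at least 2-fold lower (16.9% of tested genes) and 1 at least 2-fold higher (9.22% of tested genes). The interval lay wholly below 2-fold for the same 6 (5.71% of tested genes) and wholly above for 0 (5.44% of tested genes).

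Within a marker-positive cell several of the genes were found together. A marker-positive cell held UMIs of 2 to 7 of the 8 genes (median 6), and the 8 genes together made up 0.0712 to 2.69% of its UMIs (median 1.29%). In other PD100 468 of 786 cells, and in PD800 561 of 900 cells, had none of them. A further 254 and 277 cells held UMIs of only 1. No PD800 cell held more than 3 of the genes, and the highest summed share of a PD800 cell was 0.326%. The highest share of another PD100 cell was 2.03%, within the range of the marker-positive cells.

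**Figure D4:**
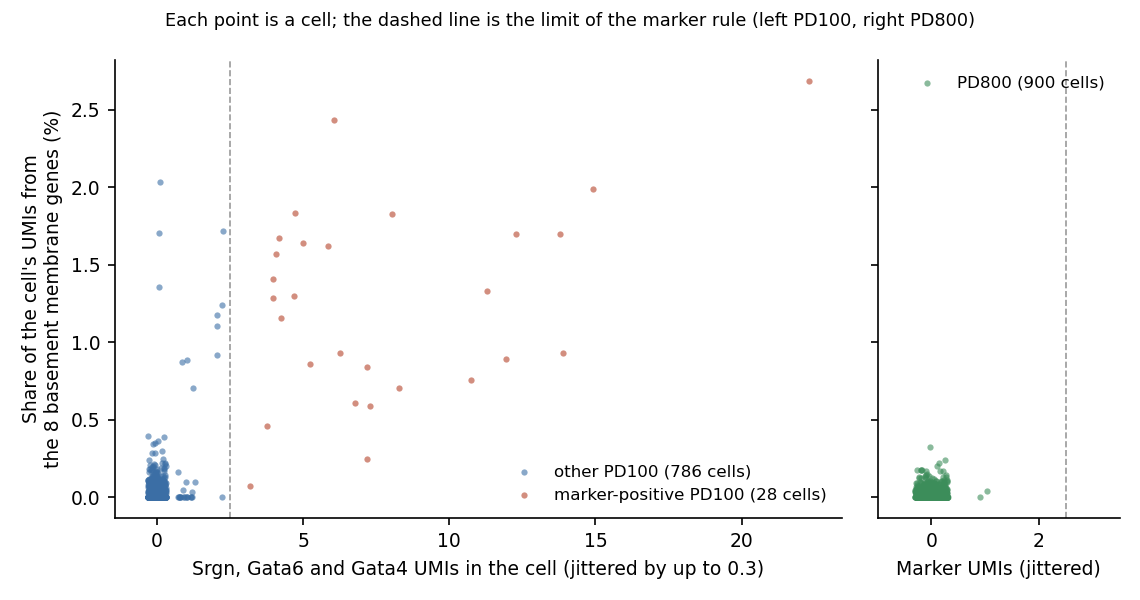
Share of each cell's UMIs from the 8 genes against its Srgn, Gata6 and Gata4 UMIs (jittered), for PD100 (left) and PD800 (right). Marker-positive cells lie to the right of the dashed line at 0.0712 to 2.69%, several other PD100 cells reach up to 2.03%, and no PD800 cell exceeds 0.326%.

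The limit of 3 marker UMIs did not separate high from low levels. The 7 cells with 3 or 4 marker UMIs, just inside it, had 10119 CPM of the 8 genes summed (8738 to 11656). The 6 cells with 2 marker UMIs, just outside, had 10672 CPM (8848 to 12762). With 1 marker UMI (22 cells) the sum was 992 CPM and with none (758 cells) 414 CPM. Some cells of the other PD100 set thus resembled the marker-positive cells in these genes.

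Such cells were described by the genes themselves, with no test: 16 of 786 other PD100 cells had UMIs of 3 or more of the 8 genes. They held 291 of the 873 UMIs of the set, among them 77.4% of its Col4a2, 63.1% of its Col4a1, 60% of its Lama1 and 54.5% of its Lamb1 UMIs. Sparc (25.8%), Lamc1 (28.6%), Hspg2 (11.1%) and Nid1 (9.09%) were spread over more cells. Outside these 16 cells Col4a2 was at 4.07 CPM, Lama1 at 8.14 CPM and Col4a1 at 14.0 CPM, beside 4.65, 7.36 and 10.1 CPM in PD800. Lamb1 was at 17.45 CPM, Lamc1 at 23.3 CPM and Sparc at 247 CPM, beside 5.42, 10.1 and 111 CPM in PD800. Nid1 was at 5.82 CPM and Hspg2 at 18.6 CPM, beside 19.0 and 35.6 CPM. The 16 cells were chosen by these genes and left out of PD100 only, so lower values outside them were set by the choice. The 13 further endoderm markers, which took no part in choosing them, were at 1628 CPM (1236 to 2104) in these 16 cells and at 40.1 CPM (31.2 to 50.8) in the remaining 770. Summed stem cell markers were at 7382 and 12309 CPM. In PD800 only 5 of 900 cells had UMIs of 3 of the genes. These had 1 UMI of the 13 further endoderm markers in all, and Pou5f1 UMIs were found in 5 of 5.

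The lower levels in PD800 were recomputed against other PD100 cells from which those with 2 or more UMIs of the 13 further endoderm markers had also been left out, a choice made after the data were seen. The log2 ratio of PD800 over these cells was -1.06 for Col4a1 (-1.85 to -0.30) instead of -1.88, and -0.43 for Lama1 (-1.46 to 0.60) instead of -1.44. Lama1 and Col4a2, at -1.01 (-2.22 to 0.16), then had intervals that included zero. Lamb1 (-2.04, -3.03 to -1.12), Lamc1 (-1.48, -2.23 to -0.76) and Sparc (-1.23, -1.45 to -1.01) stayed lower, and Nid1 (1.56) and Hspg2 (0.93) stayed higher. Leaving out these cells moved the ratios of Col4a1, Col4a2, Lama1 and Lamb1 by more than those of Lamc1, Sparc, Nid1 and Hspg2.

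Genes that fold, modify or export secreted proteins were examined as a list of 18 genes, not all of them particular to collagen or laminin. Of the 15 tested, 13 were at least 2-fold higher in marker-positive than in other PD100 cells and none was 2-fold lower, with a median log2 ratio of 2.56 (14.4% of all tested genes were so higher and 31.8% lower, with a median of -0.29). P4ha1 reached the minimum of 50 UMIs only through the marker-positive cells, and Mcfd2, with 24 UMIs in other PD100 and 0 in the marker-positive cells, did not reach it. Serpinh1, which encodes the collagen chaperone HSP47, had 191 UMIs in marker-positive PD100 (2675 CPM), 104 in other PD100 (59.3 CPM) and 80 in PD800 (31.0 CPM). It was found in 27 of the 28 marker-positive cells, with a log2 ratio of 5.50 (5.14 to 5.86). P4ha1 (5.14) and P4ha2 (4.95), the catalytic subunits of collagen prolyl 4-hydroxylase, were next. At the other end of the list Lman1 (0.19), the cargo receptor partner of Mcfd2, and Mia3 (-0.11), which helps to export large cargo, had intervals that included zero. In PD800 over other PD100 the list had no common direction. Only 1 of the tested genes was at least 2-fold higher and 2 were lower, with a median of -0.40 (9.26% and 16.8% of all tested genes). The higher gene was Loxl2, a lysyl oxidase that cross-links collagen, at 62.1 CPM in other PD100 and 468 CPM in PD800 (log2 2.91, 2.63 to 3.21), followed by Plod3 (0.54) and P4hb (0.22). The lowest were P4ha2 (-2.17), Plod1 (-1.14) and Mcfd2 (-1.14).

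**Figure D5:**
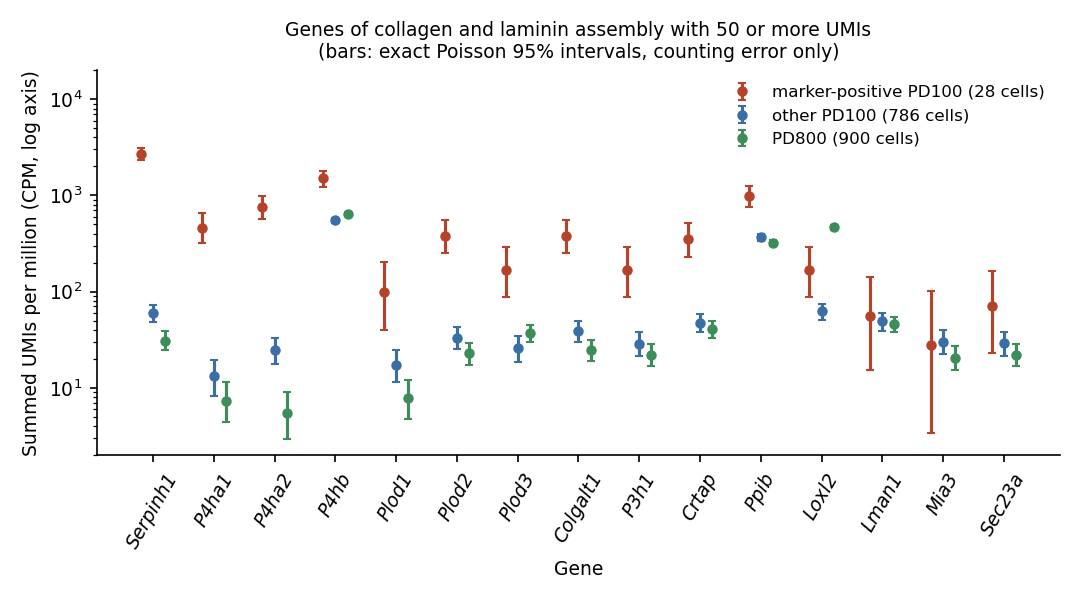
Levels in CPM (log axis) of 15 genes that fold, modify or export collagen and other secreted proteins, with exact Poisson 95% intervals. Shown are genes with 50 or more UMIs, in marker-positive PD100, other PD100 and PD800. Serpinh1, P4ha1 and P4ha2 stand highest above other PD100 in the marker-positive cells, and Loxl2 is highest in PD800 (468 CPM).

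In the marker-positive cells the remaining collagen IV and laminin genes were scarcely detected. The 4 further type IV collagen genes, Col4a3 to Col4a6, had 0 UMIs in marker-positive cells, 5 in other PD100 and 4 in PD800. Of 8 further laminin chains 7 were at 0 in the marker-positive cells, and the eighth, Lamb2, had 1 UMI. Lama5, the alpha chain of laminin-511 and a substrate of stem cells, had 0, 49 and 35 UMIs in the 3 sets, and Lamb2 1, 23 and 18. At 27.9 CPM in other PD100, Lama5 lay under the limit of 42.0 CPM for 0 UMIs in the marker-positive cells. In PD800 over other PD100 the log2 ratio was -1.04 for Lama5 (-1.71 to -0.39) and -0.91 for Lamb2 (-1.89 to 0.04). The high laminin UMIs of the marker-positive cells were thus those of the laminin-111 chains.

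Of 18 other basement membrane components 5 were tested. Of these, 0 were at least 2-fold higher in the marker-positive cells (14.4% of tested genes) and 3 at least 2-fold lower (31.8% of tested genes). Tinagl1, a secreted matrix protein with too few UMIs to be tested, had 20 UMIs in marker-positive PD100 (280.1 CPM), 10 in other PD100 (5.70 CPM) and 0 in PD800 (log2 5.62 for the first pair, 4.46 to 6.88). Nid2, the second nidogen, had 7, 97 and 88 UMIs (log2 0.83 in marker-positive over other PD100, -0.53 to 1.92). Unlike Nid1 it was not higher in PD800 (log2 -0.70, -1.13 to -0.27). Fn1, fibronectin, had 3, 154 and 274 UMIs, and its PD800 interval included zero (log2 0.27, -0.02 to 0.57). Col18a1, whose product carries endostatin, was the 1 component of the 5 that was at least 2-fold lower in PD800 (16.8% of tested genes were so lower). It had 63 UMIs against 194 in other PD100 (log2 -2.18, -2.61 to -1.76). In the marker-positive cells Fbln1 (0 UMIs against 21 in other PD100), Col18a1 (3 UMIs, log2 -1.40, -3.69 to 0.17) and Fn1 (log2 -1.06, -3.36 to 0.51) had the lowest ratios, and Agrn had a log2 ratio of -0.19. The 12.0 CPM of Fbln1 in other PD100 lay under the limit of 42.0 CPM for 0 UMIs in the marker-positive cells. In PD800 Fbln1 (log2 0.44, -0.34 to 1.27) and Agrn (0.19) were at the upper end with Fn1.

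Matrix receptors were described by 18 genes, 8 of them tested. Of these 8, Itgb5 reached the minimum of 50 UMIs only through the marker-positive cells, and Gpc3 only through PD800. In the marker-positive cells 2 were at least 2-fold higher (14.4% of all tested genes), Itgb5 (log2 2.03, 0.50 to 3.29) and Itgb1 (1.11, 0.20 to 1.89), both integrin beta subunits, followed by Sdc4 (0.86), a syndecan. Bcam, a laminin receptor, had 0 UMIs there and 55 in other PD100 (31.3 CPM), and Ddr1, a collagen receptor, 0 and 30 (17.1 CPM). Both levels lay under the limit of 42.0 CPM for 0 UMIs in the marker-positive cells, so no lower level was shown. Sdc1 (-0.51, -5.85 to 2.06) was lowest among those with UMIs. In PD800 3 genes were at least 2-fold lower (16.8% of all tested genes), Itgb1 (52 UMIs against 160, log2 -2.18, -2.66 to -1.72), Itgb5 (-2.14) and Sdc1 (-1.52), and Gpc3, a glypican, was the 1 at least 2-fold higher (9.26% of all tested genes; log2 1.04, 0.48 to 1.64). Itgb4 (0.58) and Itga6 (0.24), partners in an integrin that binds laminin, had intervals that included zero, and Ddr1 was at -1.66 with too few UMIs to be tested.

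Among 15 genes of matrix turnover 4 were tested, and all 4 were at least 2-fold higher in marker-positive than in other PD100 cells (14.4% of all tested genes). The 3 highest of those with at least 20 UMIs were the protease Ctsl (248 UMIs against 399, log2 3.93, 3.70 to 4.17), the protease inhibitor Timp2 (16 against 26, 3.92) and the protease Htra1 (30 against 64, 3.53). The lowest were Mmp14 (1.10, with an interval that included zero), Timp1 (1.77) and Ctsb (2.39). In PD800 3 of the 4 tested genes were at least 2-fold lower (16.8% of all tested genes). Timp2 had 2 UMIs in PD800 (log2 -4.26, -7.38 to -2.26), Htra1 14 (-2.75) and Ctsl 245 (-1.26), and Timp1 was higher (0.52, 0.13 to 0.93), above Ctsb (-1.11) and Mmp14 (-1.17).

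To name the genes most like the 8 across PD100 cells, the log count per 1000 UMIs of each of 6191 genes with 30 or more PD100 UMIs was correlated with that of the 8 genes summed over 814 cells. The points share 1 library, differ in depth and are led by the marker-positive cells, so the values are a description. Serpinh1 came first (Pearson r = 0.738), then Cryab (0.621), a small heat shock protein, Fabp3 (0.596), a fatty acid-binding protein, Tfpi (0.596), an inhibitor of coagulation, Lrpap1 (0.576) and Kdelr3 (0.560), both of the secretory pathway, Ctsl (0.528), P4ha2 (0.510), P4ha1 (0.494) and Sox17 (0.481). Fabp3 and Tfpi were not low in PD800, at 203 and 105 CPM against 137 and 62.7 CPM in other PD100. Across 900 PD800 cells the highest r of 6527 genes was 0.134, which is a weak correlation in sparse counts.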

How the data were processed

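Per the labels, single-cell libraries were made by inDrops from DKO741 mESCs at 2 time points, 1 library each. Both deposited tables give, per barcode and gene, raw UMI counts. The authors made them with the inDrops pipeline from reads mapped to a GRCm38 (mm10) transcriptome, and the annotation release was not given in the sources used here. The submitters' processing notes also name Scanpy. Counts are of transcript ends, so that isoforms were not distinguished.

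The limits that the study states for its cell filter were applied to the deposited tables, which kept somewhat more cells in each library (814 and 900) than the study states. Cells with fewer than 1000 UMIs (477 PD100 and 758 PD800 barcodes) or over 20% UMIs of the 37 mitochondrial genes (8 further PD800 barcodes) were left out. UMIs were summed per set of cells and scaled to the total. Sums were given exact Poisson, shares exact binomial (Clopper-Pearson) and ratios exact conditional intervals at the 95% level, which leave out any error but that of counting. With 1 library a group no test was made. Cells were thinned to 1000 UMIs without replacement (seed 1). Ratios over all genes used 6984 genes with 50 or more UMIs over both libraries. From each list, up to 3 genes at either end of the ratio were named among those with 20 or more UMIs, and the 10 genes most like the 8 genes. The 8 genes, the 12 lists and the marker rule were chosen with earlier results of these data known. Doublets were called with Scrublet in Scanpy 1.11.5 at an expected rate of 5%, which marked 1.72% of PD100 and 0.889% of PD800 cells. Gene positions came from GENCODE M21 and promoter sequences from RefSeq (GRCm38.p6). Only the ratios and their intervals were tested on simulated counts, which held known folds. The software was SciPy 1.17.1, NumPy 2.4.6, matplotlib 3.10.9 and pandas 2.3.3 under Python 3.11.15.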

Additional observations from a re-analysis of the deposited data

Results flagged for a closer look

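Barcodes that the cell filter left out also held UMIs of the 8 basement membrane genes, beyond what a count of 0 would permit. In PD100 477 such barcodes held 185 UMIs of the 8 genes, or 749.6 CPM (645 to 866, exact Poisson), and in PD800 766 barcodes held 61 UMIs, or 133.1 CPM (102 to 171). The log2 ratio of PD800 over PD100 was -2.49 (-2.94 to -2.07) in these barcodes, against -2.22 (-2.36 to -2.08) in the kept cells. In the PD100 barcodes Sparc had 97 UMIs, Col4a1 25, Lamb1 18, Col4a2 14, Lamc1 14, Hspg2 12, Lama1 5 and Nid1 0. In the PD800 barcodes Sparc had 15 UMIs and each of the other genes 5 to 8. Srgn, Gata6 and Gata4 had 30 UMIs in the PD100 barcodes and 5 in the PD800 barcodes. All but 8 of these barcodes had fewer than 1000 UMIs, and those 8, in PD800, were left out for their mitochondrial share alone.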

How the results depend on the processing

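The precision of every value is limited by the UMIs behind it, 3 for Nid1 in the marker-positive cells at the lowest, and by the single library of each time point. No paired analysis was possible because each group has 1 library and no result comes from a test, and for the same reason no replicate could be left out. The 8 genes were recomputed one by one under up to 11 alternatives in each comparison. Of 248 such values 223 moved by less than their counting interval, 25 moved by more and 0 changed direction. Some of the 223 could not have moved. The marker rule does not enter the comparison of PD800 with all PD100. Dropping the mitochondrial filter left the PD100 sets as they were (28 and 786 cells). Hspg2 in PD800 over other PD100 ranged from a log2 ratio of 0.70 to 1.13, and Nid1 from 1.56 to 1.999. With at least 2000 UMIs per cell the ratio of Lama1 was -0.48 (-1.57 to 0.64) and that of Col4a1 -1.12. In other PD100 cells with no Srgn, Gata6 or Gata4 UMI, an alternative added after seeing the data, that of Col4a2 was -0.49 (-1.79 to 0.84).

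For the 8 genes summed, the log2 ratio of marker-positive over other PD100 (4.59) was 4.77 when marker-positive began at 2 UMIs, 4.39 when it began at 5, 4.85 with no marker UMI in the other cells, 4.99 without other cells holding further endoderm markers (the last 2 alternatives added after seeing the data), 5.36 without Sparc and 4.16 without Col4a1 and Col4a2. The ratio of PD800 over other PD100 (-1.29) was -1.09, -1.56, -1.03, -0.89 and, without Sparc, -0.89 under the same settings, -1.49 with the marker rule on thinned cells and -0.96 with median-of-ratios scaling, under which Hspg2 joined Nid1 so that 2 genes were at least 2-fold higher. That of PD800 over all PD100 (-2.22) was -1.88 with this scaling and -1.96 without Col4a1 and Col4a2. The share of marker-positive cells with a UMI of any of the 8 genes at equal depth (96.4%) was 100% with a start at 5 UMIs, with the rule on thinned cells, at 2000 UMIs and without thinning. In other PD100 (25.3%) and PD800 (17.1%) it was 10.3% and 8.56% without Sparc, 40.7% and 29.0% at 2000 UMIs, and 40.5% and 37.7% without thinning.

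The number of genes past 2-fold depended on the minimum of UMIs. In marker-positive over other PD100 1008 genes were higher and 2224 lower at 50 UMIs, 1727 (17.6%) and 3927 (40.0%) at 20, 312 (9.71%) and 746 (23.2%) at 200, and 2797 (12.1%) and 12715 (54.8%) without a minimum. In PD800 over other PD100 647 and 1175 were so at 50 UMIs, 1005 and 1897 at 20, 331 and 408 at 200, and 5567 and 6771 without a minimum. In PD800 over all PD100 they were 644 and 1178, 995 and 1916, 334 and 401, and 5407 and 6976. Fewer or more genes were tested in each case.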
